A study of Sus scrofa with 11 samples.

Results

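Interferon response genes were followed in 11 RNA sequencing libraries of porcine coronary artery. The set was a list of 37 gene symbols. Of these, 34 matched gene identifiers in the count tables, which hold 25880 identifiers, 14857 of them with a symbol. DDX58 was matched through its newer symbol, RIGI. IFIT3, OAS1 and XAF1 had no matching identifier and were not analysed here. OASL and ISG20 were matched but had too few counts to test, which left 32 tested genes.

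The study set up a vessel culture outside the body as a model for stent therapies. Native arteries, not cultured, gave 2 libraries. Stented arteries held in a bioreactor gave 2 libraries without flow (stented static) and 3 under the stronger of 2 flow levels (stented high-flow). Arteries without a stent gave 2 libraries under the stronger flow (high-flow) and 2 under the weaker flow (low-flow). The labels give no age or sex of the animals, no stent type and no length of culture. In the labels, both stented static libraries carry the mark 3d and stented high-flow replicate 3 the mark 7d, a code whose meaning was not stated. The number 25 stands in the labels of both native replicate 2 and stented high-flow replicate 1; a common animal is neither stated nor excluded by the labels. No label ties the libraries of 1 group to separate animals, so p-values measure the spread between these libraries, which may be technical.

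Interferons are secreted proteins, and cells release the type I interferons when they sense viral or misplaced nucleic acid. Type I interferons and interferon-gamma bind separate receptor pairs on the cell surface, and the receptors' Janus kinases activate STAT proteins. A STAT complex that holds STAT2 and IRF9 switches on type I target genes, while STAT pairs without them switch on interferon-gamma targets such as IRF1 and the guanylate-binding proteins. Many targets block viral replication, and a low level of several of them is kept by tissues without infection. In arteries, smooth muscle, endothelial and resident immune cells can all respond to interferons.

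Library totals were 13.5 to 26.8 in units of 1e6 counts. Levels are counts per 1e6 (CPM) on scaled library sizes, and they are compared between libraries but not between genes, since they are not per length. Changes are log2 fold changes ± standard error. A gene was called when its adjusted p, by edgeR's quasi-likelihood test and Benjamini-Hochberg adjustment over 15348 genes, was under 0.05. The 8 contractile smooth muscle markers summed to 28634 and 34414 CPM in the native libraries and 478 to 7285 CPM in the cultured ones, so the markers of arterial muscle were present in all 11 libraries. Native replicate 1 also held 602 CPM of 3 cardiomyocyte markers, against 3.85 CPM in native replicate 2. These are bulk samples, in which fewer cells of a type and less RNA per cell cannot be told apart.

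Of the 32 interferon response genes tested, 25 passed the test in no comparison, and the 7 that did were lower. IRF1, a transcription factor of the interferon-gamma response, fell 6.28- to 8.12-fold in the 4 cultured groups. GBP1, a guanylate-binding GTPase that defends cells against intracellular microbes, also fell in all 4, by 4.47- to 8.05-fold. HERC6, IFI6 and IFI44L were called lower in stented high-flow arteries. No member was called higher in any of the 8 comparisons.

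**Figure D1:**
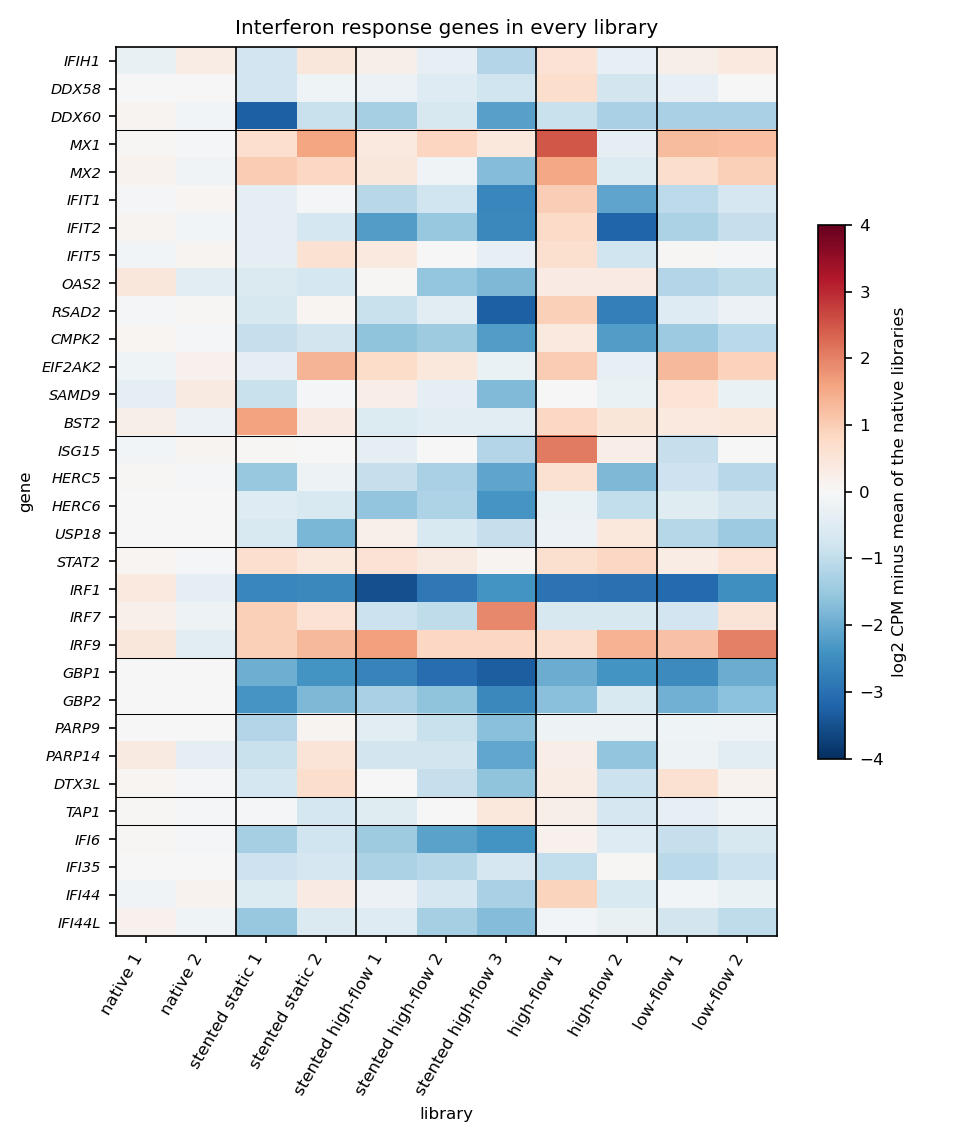
Log2 CPM of the 32 tested genes (rows, grouped by role) in each of the 11 libraries (columns), minus the mean of the 2 native libraries; blue is lower and red higher. IRF1 and GBP1 are blue in all 9 cultured libraries, whereas IFIT1, IFIT2 and RSAD2 are red in high-flow replicate 1 and blue in high-flow replicate 2.

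In stented static arteries, 3 of 32 members (9.38%) were called lower, beside 7.19% of all genes. In stented high-flow arteries 6 members (18.8%) were called lower, beside 13.9% of all genes. High-flow arteries had 2 members (6.25%) called lower, beside 8.86%, and low-flow arteries had 3 (9.38%), beside 7.38%. These shares lie near those of all genes, so the counts alone do not set the interferon genes apart. The share of all genes called higher was 5.54%, 10.4%, 5.94% and 5.03% in the same order, and 0 members were called higher by edgeR. At an unadjusted p under 0.05 the members that lay higher numbered 1, 0, 3 and 1, DESeq2 called 0, 0, 1 and 0 higher, and limma-voom called 0 in each. When low-flow and native libraries were fitted alone, 16 members were called, 3 higher and 13 lower, as were 4884 of all genes. The main fit called 3 members and 1904 of all genes in that comparison. The refit filtered the genes anew, and its share of all genes is not given here. All 4 comparisons use the same 2 native libraries and are therefore not independent of each other.

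The median log2 fold change of the members was -0.38 in stented static, -0.83 in stented high-flow, -0.14 in high-flow and -0.37 in low-flow arteries. Without stented static replicate 1 the stented static median was -0.10, and without replicate 2 it was -0.64. For all genes the 4 medians were 0.02, 0.06, 0.02 and -0.00. When the mean of the 4 cultured groups was set against native, 5 members were called lower (15.6%), beside 15.9% of all genes, and 0 were called higher, beside 9.79%. Those 5 were IRF1, GBP1, GBP2, HERC6 and IFI6. In that comparison 1 member lay higher at an unadjusted p under 0.05, and neither DESeq2 nor limma-voom called any member higher (0 in both).

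**Figure D2:**
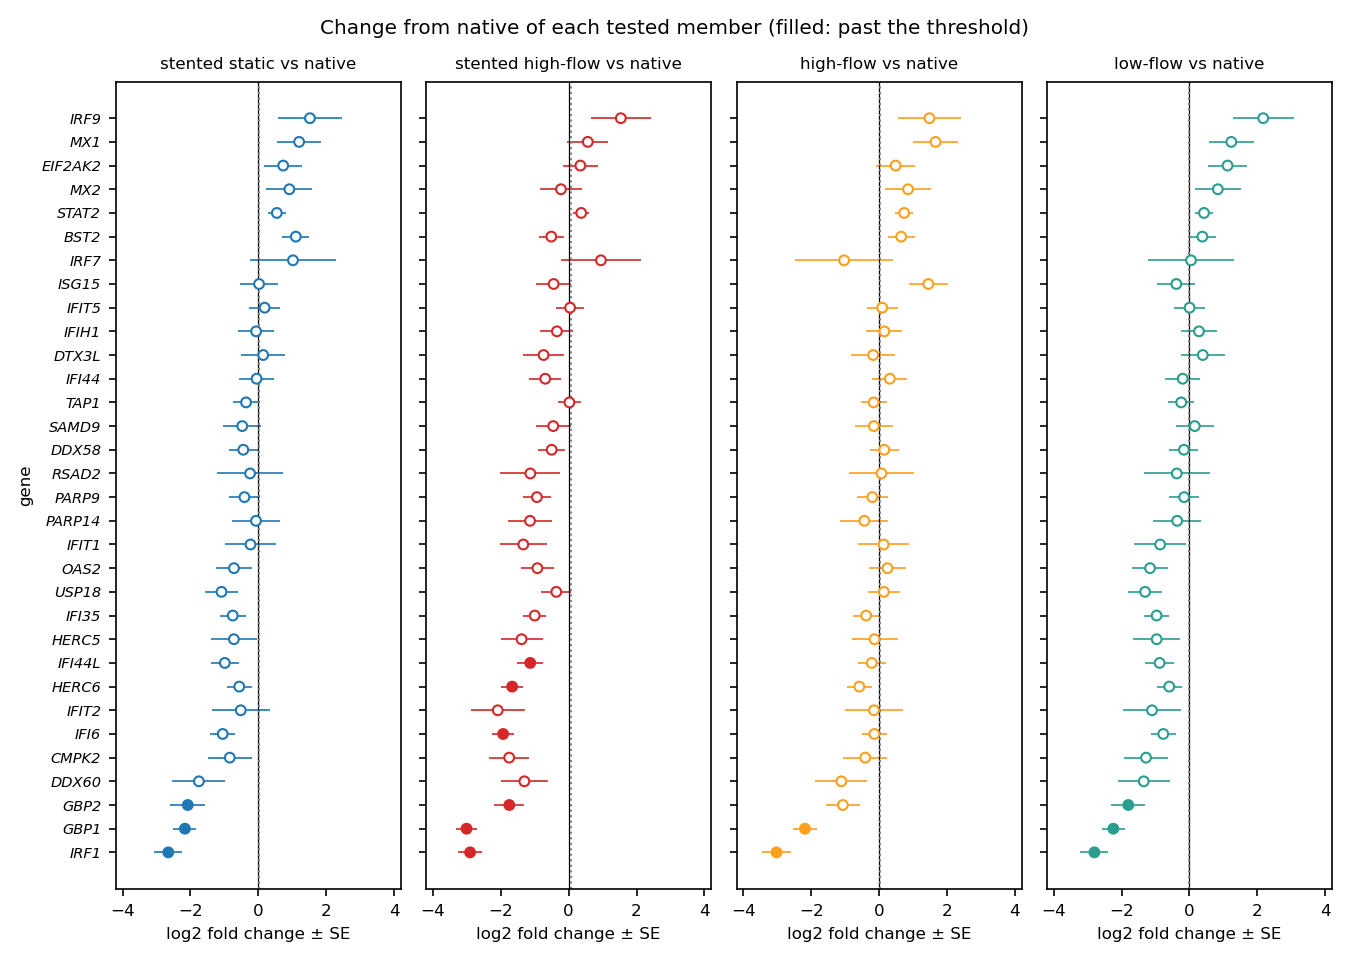
Log2 fold change from native (horizontal, with standard error bars) of each of the 32 tested genes in the 4 cultured groups; filled points were called and the dotted line is the median of all genes. The filled points are 3, 6, 2 and 3 in number, all left of 0, with IRF1 and GBP1 filled in every panel.

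Among the transcription factors, IRF1 was the one that fell. IRF1 (interferon regulatory factor 1; Sscrofa11.1 chromosome 2, 134776122 to 134783646, from RefSeq by symbol) binds the promoters of many interferon targets and is itself induced by interferon-gamma. Its level was 173 and 98.5 CPM for native, 21.3 and 21.9 for stented static, 11.4, 18.1 and 24.7 for stented high-flow, 16.9 and 16.5 for high-flow and 15.2 and 23.7 for low-flow. Every cultured library lay below both native ones by a wide gap, although the native pair itself was far apart.

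The IRF1 change was -2.65 ± 0.41 in stented static arteries (adjusted p = 0.00304), a level 6.28-fold lower. It was -2.90 ± 0.36 in stented high-flow (adjusted p = 0.000423), -3.02 ± 0.42 in high-flow (adjusted p = 0.00165) and -2.80 ± 0.41 in low-flow (adjusted p = 0.00245). These calls were kept in every alternative analysis and when any library was left out. Between cultured groups IRF1 did not pass the test. Stented high-flow minus stented static was -0.25 (95% interval -1.04 to 0.53), low-flow minus high-flow 0.22 (-0.64 to 1.08), and stented high-flow minus high-flow 0.12 (-0.67 to 0.91), intervals that leave room for differences of up to about a log2 unit.

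STAT2 and IRF9 are parts of the complex that carries the type I interferon signal to DNA. STAT2 read 35.5 and 32.4 CPM for native, 54.0 and 45.2 for stented static, 51.2, 43.6 and 36.9 for stented high-flow, 53.4 and 60.1 for high-flow and 41.9 and 49.5 for low-flow. All 9 cultured libraries lay above both native ones, but edgeR called no comparison. The change of 0.74 ± 0.26 in high-flow arteries had an adjusted p of 0.0790, against 0.0443 in DESeq2 and 0.0378 with 1 count table. IRF9 was close to the detection limit, with 3 and 1 counts for native, 8 and 7 for stented static, 8, 5 and 6 for stented high-flow, 5 and 9 for high-flow and 9 and 22 for low-flow. Its cultured libraries also lay above the native ones, at counts too low to call; the largest change, 2.17 ± 0.90 in low-flow, had an adjusted p of 0.139.

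IRF7, which amplifies type I interferon production, was also near the limit, with 4 and 3 counts for native, 13 and 6 for stented static, 1, 1 and 23 for stented high-flow, 2 and 2 for high-flow and 2 and 10 for low-flow. The single high count, in stented high-flow replicate 3, stood apart from the other replicates of that group. No IRF7 comparison was called.

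Both guanylate-binding GTPases fell. These GTPases, encoded side by side on chromosome 4 (GBP1 at 127425699 to 127442132, GBP2 at 127387222 to 127408729), assemble on the membranes of microbes inside cells and are strongly induced by interferon-gamma. They are close paralogs, and the counting could split reads between them and other family members, so the division between GBP1 and GBP2 is uncertain.

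GBP1 stood at 54.2 and 53.9 CPM for native, 13.8 and 10.3 for stented static, 8.32, 6.45 and 5.39 for stented high-flow, 13.5 and 10.3 for high-flow and 9.16 and 13.6 for low-flow. The native pair was nearly level, every cultured library was far below it, and the 3 stented high-flow libraries were the lowest of all. Its change was -2.16 ± 0.34 in stented static (adjusted p = 0.00318), -3.01 ± 0.30 in stented high-flow (adjusted p = 0.000162), -2.18 ± 0.34 in high-flow (adjusted p = 0.00267) and -2.24 ± 0.34 in low-flow (adjusted p = 0.00284). The stented high-flow level was thus 8.05-fold below native and the others 4.47- to 4.74-fold below it. Stented high-flow minus stented static was -0.85 (95% interval -1.51 to -0.19) and stented high-flow minus high-flow -0.83 (-1.49 to -0.17), neither of them called across all genes (adjusted p = 0.157 and 1.00). Without low-flow replicate 1 the low-flow call was lost (-1.98, adjusted p = 0.0519).

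GBP2 was 16.4 and 16.7 CPM for native, 3.12 and 4.74 for stented static, 6.74, 5.39 and 2.72 for stented high-flow, 5.09 and 10.7 for high-flow and 4.28 and 5.21 for low-flow. Every cultured library was below both native ones, with high-flow replicate 2 the nearest to them. The change was called in stented static (-2.08 ± 0.51, adjusted p = 0.0248), stented high-flow (-1.75 ± 0.44, adjusted p = 0.0162) and low-flow (-1.80 ± 0.50, adjusted p = 0.0401). In high-flow it was -1.07 ± 0.49 with an adjusted p of 0.172. The 3 calls rest on few libraries: leaving out either native library ended all 3 (adjusted p = 0.0740 to 0.148), as did leaving out stented static replicate 1 for that group (adjusted p = 0.139) and either low-flow library or stented high-flow replicate 2 for low-flow (adjusted p = 0.232, 0.165 and 0.0582). With a replicate block the stented high-flow call had an adjusted p of 0.0523.

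Markers of T and natural killer cells were lower in most of the same libraries. T cell receptor component CD3E had 34 and 30 counts in the native libraries, 9 and 1 in the stented static ones and 0 in the 7 other cultured libraries. Of the 9 tested markers on that list, 7 were called lower in stented high-flow, 5 in high-flow, 5 in low-flow and 0 in stented static, where 1, NKG7, was called higher. Of all genes, 13.9%, 8.86%, 7.38% and 7.19% were called lower in the same order, and 5.54% were called higher in stented static. The summed level of all 11 markers found was 40.7 to 46.7 CPM in native, 18.6 to 63.9 in stented static, 13.5 to 16.6 in stented high-flow, 21.1 to 22.5 in high-flow and 19.4 to 26.9 in low-flow. The macrophage markers, 12 in all, summed to 559 to 571 CPM in native and 392 to 2357 CPM in culture, and the 7 endothelial markers to 794 to 936 and 320 to 1011 CPM. The 5 adipocyte markers summed to 1704 and 1076 CPM in native, 1878 in stented static replicate 1 and 24.9 to 183 CPM in the 8 other cultured libraries. Their part in the falls of IRF1, GBP1 and GBP2 was not tested.

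**Figure D3:**
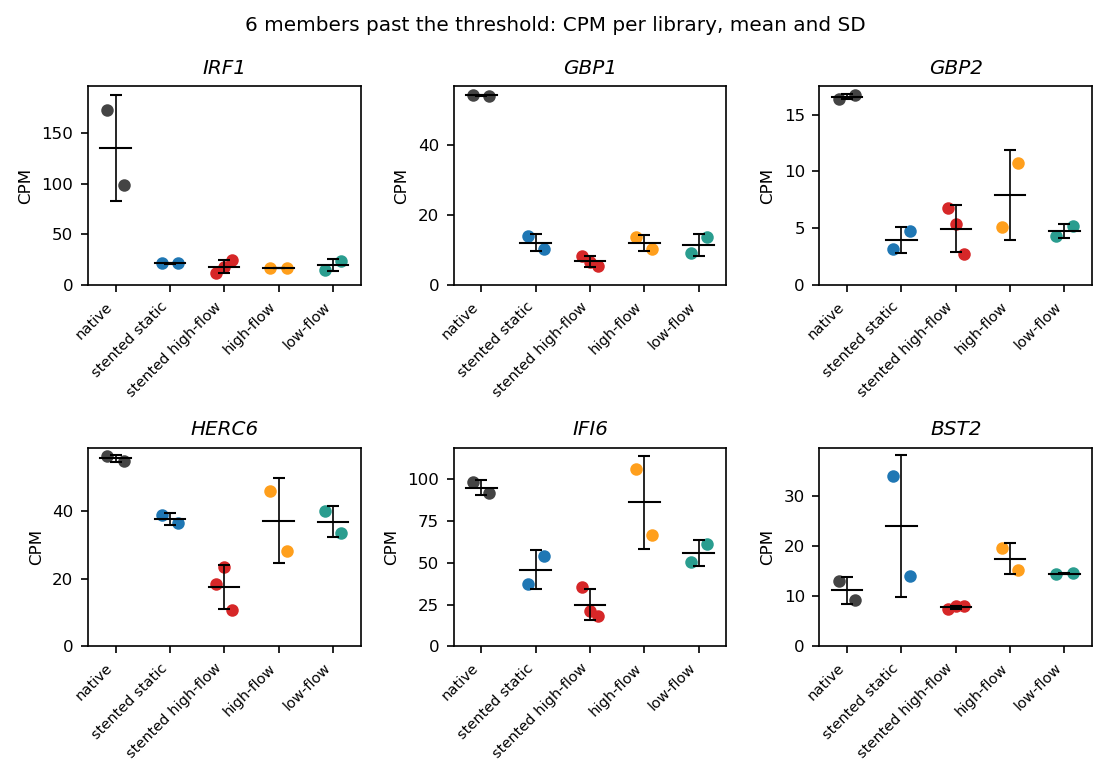
CPM per library (points), with the group mean and SD (n = 2 libraries, 3 for stented high-flow), of 6 of the 7 genes that passed the test in any comparison; each vertical axis starts at 0. IRF1 and GBP1 drop in all 4 cultured groups, HERC6 and IFI6 are lowest in stented high-flow, and BST2 has 1 high stented static library at 34.0 CPM.

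HERC6 and IFI6 fell in the stented high-flow arteries. HERC6 (chromosome 8, 130594941 to 130665591) is a relative of HERC5, the ligase that joins the ubiquitin-like protein ISG15 to its targets. Its level was 56.2 and 54.9 CPM for native, 38.9 and 36.4 for stented static, 18.4, 23.5 and 10.7 for stented high-flow, 46.0 and 28.2 for high-flow and 40.0 and 33.5 for low-flow. All 9 cultured libraries were below native and the 3 stented high-flow ones were below all others. The stented high-flow change was -1.67 ± 0.33 (adjusted p = 0.00497) and was kept in every alternative and leave-out, whereas the other groups were at -0.56 to -0.60 and not called. Stented high-flow minus stented static was -1.10 (95% interval -1.83 to -0.38) with an adjusted p of 0.0975.

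IFI6 (chromosome 6, 84852782 to 84858072) encodes a small membrane protein that restricts some viruses and protects cells from death. It read 98.3 and 92.0 CPM for native, 37.7 and 54.4 for stented static, 35.4, 21.4 and 18.1 for stented high-flow, 106 and 66.7 for high-flow and 50.3 and 61.2 for low-flow. The 3 stented high-flow libraries lay below every other library, and high-flow replicate 1 lay above native. Against native the stented high-flow change was -1.93 ± 0.33 (adjusted p = 0.00225), again kept throughout. Stented static was at -1.05 ± 0.37 (adjusted p = 0.0834, but 0.0422 in DESeq2 and 0.0420 without stented high-flow replicate 1), low-flow at -0.77 ± 0.36 (adjusted p = 0.190, but 0.0208 with only these groups) and high-flow at -0.14 ± 0.36. Stented high-flow minus high-flow was -1.79 (95% interval -2.51 to -1.07), with an adjusted p of 1.00 in edgeR and 0.0115 in DESeq2.

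For the mean of the cultured groups, HERC6 was at -0.85 ± 0.27 (adjusted p = 0.0389) and IFI6 at -0.97 ± 0.27 (adjusted p = 0.0209). Without native replicate 1 these had adjusted p = 0.198 and 0.149, and without native replicate 2 they had 0.208 and 0.130. HERC6 was also not called without stented static replicate 2 (0.0507), high-flow replicate 2 (0.0613), low-flow replicate 1 (0.0611) or low-flow replicate 2 (0.0785). GBP2, at -1.67 ± 0.35 (adjusted p = 0.00504), was not called there without native replicate 2 (0.0578). In stented high-flow, the endothelial markers summed to 320 to 457 CPM, against 794 to 936 in native and 402 to 1011 in the other cultured libraries, and the T and natural killer cell markers to 13.5 to 16.6 CPM. Their part in the falls of HERC6 and IFI6 was not tested.

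IFI44L, an interferon-induced gene on chromosome 6 (134660230 to 134679212), was called in stented high-flow at the edge of the threshold. Its CPM was 45.6 and 35.4 for native, 14.1 and 26.8 for stented static, 27.8, 15.8 and 11.9 for stented high-flow, 37.1 and 32.6 for high-flow and 24.3 and 19.7 for low-flow. The stented high-flow libraries lay below native and overlapped the stented static and low-flow libraries. The change of -1.13 ± 0.38 (adjusted p = 0.0493) was kept in 3 of 11 leave-outs and 5 of 8 other alternatives, and the replicate block gave an adjusted p of 0.148. The 8 libraries whose removal ended the call were both native, both high-flow and both low-flow libraries and stented high-flow replicates 2 and 3. Of the 2 other genes in this group, IFI35 and IFI44, neither was called in any comparison of the main edgeR fit. IFI35 was called lower in stented high-flow with DESeq2 (0.0271), a minimum of 10 counts (0.0468) and the replicate block (0.0492). For the mean of the cultured groups, DESeq2 gave IFI35 an adjusted p of 0.0453 and the block 0.0471. Low-flow fitted with native alone gave 0.0125.

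BST2 was the sole member called between cultured groups in the main edgeR fit. DESeq2 also called HERC6 lower in stented high-flow than in stented static (adjusted p = 0.0278). It called IFI6 lower in stented high-flow than in high-flow (adjusted p = 0.0115). BST2 (chromosome 2, 60305306 to 60308295) encodes tetherin, which holds budding virus particles on the cell surface. Its CPM was 13.1 and 9.26 for native, 34.0 and 14.0 for stented static, 7.46, 7.97 and 8.06 for stented high-flow, 19.7 and 15.3 for high-flow and 14.4 and 14.6 for low-flow. The stented high-flow libraries were tightly grouped below all others, and stented static replicate 1 stood well above the rest. Stented static minus native was 1.11 ± 0.40 (adjusted p = 0.0935), and 1.61 without stented static replicate 2, which leaves 1 library in that group.

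Stented high-flow minus stented static was -1.62 ± 0.36 for BST2 (adjusted p = 0.0407), a 3.07-fold lower level. It was the 1 member of 32 called lower in that comparison (3.13%), beside 1.67% of all genes, and 0 members were called higher, beside 1.18%; at an unadjusted p under 0.05, 4 members were lower and 0 higher. DESeq2 called 2 members lower and limma-voom 0, with 0 higher in both. Without stented static replicate 1 the BST2 difference was -0.84 (adjusted p = 0.376). The call held only without stented static replicate 2 among the 11 leave-outs; the other 9 gave adjusted p = 0.0507 to 0.118. The macrophage markers summed to 2357 CPM in stented static replicate 1, 1010 in stented static replicate 2 and 392 to 834 in the stented high-flow libraries. Their part in the BST2 difference was not tested.

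The antiviral effectors formed the largest group and none was called against native in the main edgeR fit. Of 15 listed, 13 were matched and 11 tested. Their median log2 fold change was -0.23 in stented static, -0.51 in stented high-flow, 0.13 in high-flow and 0.00 in low-flow. With only low-flow and native libraries fitted, CMPK2, IFIT1, IFIT2 and OAS2 were called lower, and MX1, MX2 and EIF2AK2 higher. MX1 was also called higher in high-flow with no filter (adjusted p = 0.0398). OAS2 was called lower in stented high-flow without its replicate 1 (-1.73, adjusted p = 0.00349).

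MX1, a dynamin-like GTPase that traps viral nucleoproteins, had 22.3 and 20.5 CPM for native, 34.5 and 64.2 for stented static, 27.8, 38.5 and 28.6 for stented high-flow, 119 and 16.8 for high-flow and 51.3 and 49.4 for low-flow. All cultured libraries except high-flow replicate 2 were above native, while high-flow held both the highest and the lowest value of the series. Its changes from native were 1.20 ± 0.65 for stented static, 0.56 ± 0.60 for stented high-flow, 1.66 ± 0.66 for high-flow and 1.23 ± 0.65 for low-flow, with adjusted p = 0.249, 0.535, 0.115 and 0.244 in that order. Without high-flow replicate 2 the MX1 change was 2.52 in high-flow, 1.23 in stented static and 1.25 in low-flow. Without high-flow replicate 1 it was 1.21 in stented static and 1.24 in low-flow. These fits leave 1 high-flow library and so drop the wide difference within that pair from the spread.

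IFIT1, which binds viral RNA that lacks the host cap mark, read 34.4 and 38.5 CPM for native, 27.7 and 34.5 for stented static, 16.6, 20.9 and 5.86 for stented high-flow, 71.7 and 8.32 for high-flow and 17.4 and 22.6 for low-flow. The stented high-flow and low-flow libraries lay below native and the high-flow pair lay on either side of it. Its stented high-flow change was -1.34 ± 0.69 (adjusted p = 0.185). IFIT2, its relative, was at 12.2 and 10.2 CPM in native, 2.30, 3.81 and 1.78 in stented high-flow, and 19.1 and 1.13 in high-flow. The stented high-flow change of IFIT2, -2.09 ± 0.79, had an adjusted p of 0.0771. It passed the test with DESeq2 (0.0240), no filter (0.0249), only these groups (0.0120) and 1 count table (0.0121). Without high-flow replicate 1 or replicate 2 it was -2.08 and -2.07, in fits that drop the difference within the high-flow pair.

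CMPK2, a mitochondrial nucleotide kinase encoded next to RSAD2, came nearest to a further call. It read 11.98 and 10.9 CPM for native, 5.93 and 6.87 for stented static, 3.66, 4.21 and 2.34 for stented high-flow, 14.9 and 2.36 for high-flow and 4.11 and 5.31 for low-flow. High-flow replicate 1 was the sole cultured library above native. The stented high-flow change was -1.75 ± 0.59 with an adjusted p of 0.0521, and DESeq2 gave 0.0157. Without high-flow replicate 1 or replicate 2 the change was -1.75 and -1.74, in fits that drop the difference within the high-flow pair. OAS2, an enzyme activated by double-stranded RNA, ranged from 25.7 to 124 CPM, MX2 from 3.70 to 36.7, IFIT5 from 16.7 to 45.3, RSAD2 (viperin) from 1.03 to 21.1, EIF2AK2 (the kinase PKR) from 17.6 to 58.5 and SAMD9 from 6.42 to 32.3 CPM over the 11 libraries. OASL had 0 to 7 counts and ISG20 0 to 11 counts in any library.

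The cytosolic RNA sensors were not called in any comparison of the main edgeR fit. DDX58, or RIG-I, which recognises RNA ends that lack a cap, was at 23.8 and 23.4 CPM for native, 13.9 and 20.9 for stented static, 20.2, 16.3 and 13.6 for stented high-flow, 38.5 and 14.0 for high-flow and 18.7 and 23.5 for low-flow. The stented libraries were below native and the high-flow pair again lay on both sides. IFIH1, or MDA5, which senses long double-stranded RNA, was at 9.77 and 14.6 CPM for native, 6.92 and 16.5 for stented static, 14.2, 9.42 and 5.25 for stented high-flow, 17.8 and 9.44 for high-flow and 14.1 and 15.6 for low-flow. The IFIH1 groups overlapped throughout, with changes of -0.35 to 0.28. DDX60, a helicase linked to RIG-I signalling, was lower than native in all 9 cultured libraries. It was at 4.23 and 3.62 CPM in native and 0.316 to 2.47 CPM in culture, but its changes of -1.75 to -1.11 were not called. Low-flow fitted with native alone gave DDX60 an adjusted p of 0.0361, and limma-voom gave 0.0406 for the mean of the cultured groups. Without stented static replicate 2 its stented static change was -3.61.

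Over all members, 5 had all 9 cultured libraries below both native ones, beside 16.9% of all genes: IRF1, GBP1, GBP2, HERC6 and DDX60. STAT2 and IRF9 were the 2 with all cultured libraries above, beside 14.1% of all genes.

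Among ISG15 and the genes of its conjugation, HERC6 alone was called in the main edgeR fit. ISG15 itself, a ubiquitin-like protein attached to other proteins, was at 10.4 and 12.3 CPM for native, 11.7 and 11.3 for stented static, 8.68, 11.3 and 4.97 for stented high-flow, 48.1 and 13.7 for high-flow and 5.91 and 11.4 for low-flow. High-flow replicate 1 stood far above the other 10 libraries, which spanned 4.97 to 13.7 CPM. The high-flow change of 1.45 ± 0.57 had an adjusted p of 0.111. Without high-flow replicate 2 it was 2.13, in a fit that leaves 1 high-flow library. USP18, the protease that removes ISG15 and dampens type I receptor signalling, was at 13.7 and 13.4 CPM for native, 8.93 and 3.77 for stented static, 15.6, 8.86 and 7.12 for stented high-flow, 11.6 and 18.3 for high-flow and 6.08 and 4.86 for low-flow. Its stented static and low-flow libraries were below native, with changes of -1.08 ± 0.49 and -1.31 ± 0.49 that were not called (adjusted p = 0.168 and 0.107). In low-flow USP18 passed with DESeq2 (0.0483), only these groups (0.00603) and 1 count table (0.0214). HERC5 ranged from 3.70 to 25.3 CPM and was not called in the main fit. With only the groups compared it was called lower in stented high-flow (adjusted p = 0.0384) and low-flow (0.0166).

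PARP9, PARP14 and their ligase partner DTX3L, which modify proteins with ADP-ribose and ubiquitin, ranged from 5.29 to 18.2, 1.12 to 7.36 and 1.31 to 6.87 CPM. TAP1, a subunit of the transporter that loads peptides for antigen presentation, ranged from 20.6 to 45.2 CPM. None of these 4 was called in any comparison.

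The high-flow replicates differed from each other across many of the interferon genes. IFIT2 was 16.9 times as high in replicate 1 as in replicate 2, RSAD2 13.7, IFIT1 8.63, MX1 7.09, CMPK2 6.31, HERC5 5.41, MX2 4.36, PARP14 3.72 and ISG15 3.51 times. IRF1, OAS2, PARP9 and STAT2 were nearly level between the pair, with ratios of 1.03, 0.999, 0.995 and 0.888. GBP2 and IFI35 went the other way, with ratios of 0.474 and 0.483.

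In all, 14 of 32 members were at least 1 log2 unit higher in replicate 1, beside 8.59% of all genes, and 2 were at least 1 lower, beside 10.1%. The median difference was 0.80 over the members and -0.00 over all genes. The central 90% of all genes spanned -1.46 to 1.27, with 13 members above that span and 0 below it. High-flow replicate 1 was the highest of the 11 libraries for 13 members, beside 4.01% of all genes.

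**Figure D4:**
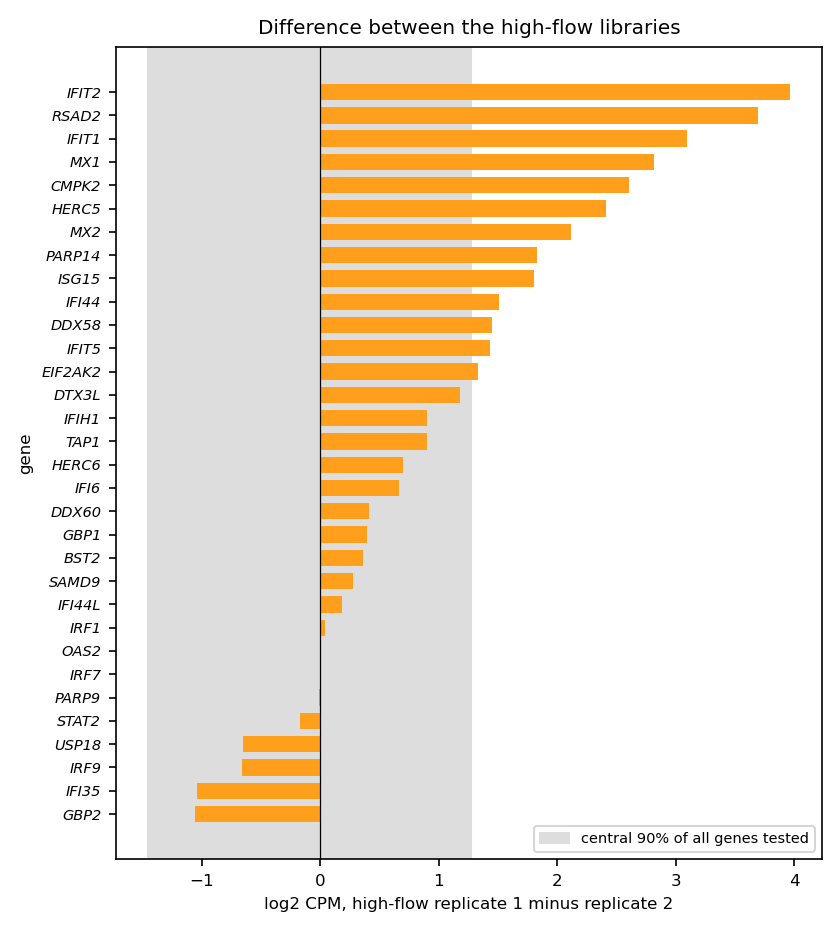
Log2 CPM of high-flow replicate 1 minus replicate 2 (bars) for the 32 tested genes; the grey band is the central 90% of all genes, -1.46 to 1.27. From IFIT2 down to EIF2AK2, 13 bars pass the right edge of the band and none passes the left edge.

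In replicates 1 and 2 the macrophage markers summed to 620 and 402 CPM, the endothelial markers to 647 and 485, the fibroblast markers to 38467 and 14881, the contractile markers to 1386 and 4898, and the T and natural killer cell markers to 21.1 and 22.5. Totals were 20.0 and 19.0 in units of 1e6 counts. The part of these differences in the interferon genes was not tested. The high-flow values rest on this pair. Without replicate 1 the members' median change from native was -0.62, and without replicate 2 it was 0.43. Without replicate 1 the changes of CMPK2 and IFIT2 from native were -2.27 and -3.30. Without replicate 2 those of ISG15 and MX1 were 2.13 and 2.52. Such a fit leaves 1 high-flow library and takes its spread from the other groups, so the difference within the pair no longer counts.

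Stented high-flow replicate 3, the library marked 7d, lay at the other end. It was the lowest of the 11 libraries for 19 of 32 members, beside 12.3% of all genes. The median member was -1.70 log2 units from the native mean there, against -0.51 and -0.70 in replicates 1 and 2. RSAD2 was at 1.03 CPM there, against 5.74 and 8.08 CPM, and SAMD9 at 6.42 against 26.4 and 17.0. It was also the highest of the 11 for 2 members. Its fibroblast markers summed to 48294 CPM, the highest of the 11, against 19206 and 35201 in replicates 1 and 2, and its macrophage markers to 834 against 472 and 392; their part was not tested. Replicate 1 was at least 1 log2 unit above replicate 3 for 15 members, beside 17.5% of all genes. Without replicate 3 the stented high-flow median change was -0.61 and 6 members were called lower. IFI35 (adjusted p = 0.0403) took the place of IFI44L (adjusted p = 0.114) among them. Within the native pair 0 members differed by 1 log2 unit or more. Of all genes, 6.38% were at least 1 higher there in replicate 1 and 3.09% at least 1 lower. Within the low-flow pair 1 member was at least 1 lower in replicate 1, beside 3.23% of all genes, and 0 at least 1 higher, beside 4.58%. In the stented static pair, 2 members were at least 1 log2 unit higher in replicate 1, beside 12.3% of all genes, and 7 at least 1 lower, beside 12.01%.

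Stent and flow were compared directly in 2 further pairs of groups. In stented high-flow against high-flow, 0 members and 0 genes in all were called by edgeR (0.00%), but 28 of 32 members lay below 0, with a median of -0.72 beside 0.03 over all genes. At an unadjusted p under 0.05 there were 9 members, all lower (28.1%), beside 3.04% of all genes. In 9 members every stented high-flow library was below both high-flow libraries, beside 6.97% of all genes; DESeq2 called 1, IFI6, and limma-voom 0. Without high-flow replicate 1 the members' median was 0.03, so the direction of the median rests on that library.

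In low-flow against high-flow, 0 members were called by edgeR, DESeq2 and limma-voom, beside 0.104% of all genes called by edgeR. At an unadjusted p under 0.05 there were 3, ISG15, OAS2 and USP18, all lower in low-flow (9.38%), beside 8.05% of all genes. Low-flow minus high-flow was -1.84 ± 0.58 for ISG15, -1.41 ± 0.54 for OAS2 and -1.45 ± 0.49 for USP18 (adjusted p = 0.508, 0.582 and 0.536).

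The rest of the interferon pathway was read from a list of 85 genes outside the members, of which 68 were matched and 61 tested. Of the 61, 8 rose and 1 fell in stented static, beside 5.54% and 7.19% of all genes. In stented high-flow 7 rose and 12 fell, beside 10.4% and 13.9%. In high-flow 5 rose and 5 fell, beside 5.94% and 8.86%. In low-flow 7 rose and 4 fell, beside 5.03% and 7.38%. These shares of all genes also stand beside the counts of each list below. Receptor chains and signalling kinases were among the genes that rose. The chemokines CXCL9 and CXCL10 and the DNA sensing adaptor STING1 were among those that fell.

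Interferon ligands were barely detected. IFNB1, the archetypal type I interferon, had 0 counts in all 11 libraries, which allows a level of up to 0.105 to 0.215 CPM per library, counting error only. IFNG had 2 counts in each native library and 0 in the 9 cultured ones, and no ligand could be tested.

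The type I receptor chain IFNAR2 rose in all 4 groups. It read 42.8 and 40.3 CPM in native and 74.7 to 102 CPM in the 9 cultured libraries, which all lay above native. Its changes from native were 0.90 ± 0.25 for stented static (adjusted p = 0.0380), 1.06 ± 0.23 for stented high-flow (adjusted p = 0.00815), 1.17 ± 0.25 for high-flow (adjusted p = 0.0114) and 1.08 ± 0.25 for low-flow (adjusted p = 0.0190). IFNGR2, a chain of the interferon-gamma receptor, rose in stented static (1.35 ± 0.30, adjusted p = 0.0174) and stented high-flow (1.29 ± 0.29, adjusted p = 0.00872), and IFNAR1 in low-flow (1.10 ± 0.31, adjusted p = 0.0412). Of the 5 kinases and STATs tested, JAK1 rose in stented static (0.92 ± 0.27, adjusted p = 0.0449) and STAT3 in low-flow (1.06 ± 0.27, adjusted p = 0.0282). Leaving out either native library ended every call in this group of genes (adjusted p = 0.0622 to 0.202). Leaving out a library of the cultured group itself ended those of IFNAR2 and JAK1 (either replicate) and IFNGR2 (replicate 1) in stented static, and of IFNAR1, IFNAR2 and STAT3 (either replicate) in low-flow (adjusted p = 0.0706 to 0.192). The IFNAR2 and JAK1 calls in stented static and the IFNAR1 call in low-flow were also lost without stented high-flow replicate 2, the first pair without either low-flow library, and JAK1 without high-flow replicate 1 (adjusted p = 0.0523 to 0.0803). IFNAR2 and JAK1 in stented static were further lost with no filter (0.0660 and 0.0687), the replicate block (0.0591 and 0.0594), only these groups (0.0751 and 0.0833) and 1 count table (0.0736 and 0.0853).

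Of 16 upstream sensing and signalling genes, 3 rose in stented static, 2 rose and 4 fell in stented high-flow, 2 rose and 2 fell in high-flow, and 2 rose and 1 fell in low-flow. IKBKE, a kinase that activates interferon regulatory factors, was at 2.41 and 1.32 CPM in native and 7.54 to 17.4 CPM in culture. In the same order of groups its changes were 2.56 ± 0.44, 2.89 ± 0.43, 2.82 ± 0.44 and 2.68 ± 0.44 (adjusted p = 0.00482, 0.00106, 0.00274 and 0.00408). STING1, the adaptor that relays cytosolic DNA signals, was at 17.2 and 17.3 CPM for native, 9.44 and 2.80 for stented static, and 1.44 to 3.51 CPM in the 7 other cultured libraries. It fell in stented high-flow (-3.15 ± 0.48, adjusted p = 0.00122), high-flow (-2.32 ± 0.53, adjusted p = 0.0160) and low-flow (-2.60 ± 0.54, adjusted p = 0.0121). ZBP1, a sensor of left-handed nucleic acid, fell in stented high-flow (-2.12 ± 0.36, adjusted p = 0.00232). The endotoxin receptor TLR4 rose in stented static (1.66 ± 0.34, adjusted p = 0.0110) and low-flow (1.36 ± 0.33, adjusted p = 0.0243), the adaptor MYD88 rose in stented static (1.12 ± 0.30, adjusted p = 0.0334), and the RNA receptor TLR8 fell in high-flow (-2.89 ± 0.73, adjusted p = 0.0234). The IKBKE calls in stented high-flow and high-flow, and those of STING1 and ZBP1 in stented high-flow, were kept in every alternative and leave-out. Without native replicate 2, IKBKE had adjusted p = 0.0617 in stented static and 0.0514 in low-flow. The other calls named here were lost without either native library, and those of STING1, TLR4 and TLR8 in high-flow or low-flow without either library of that group (adjusted p = 0.0616 to 0.195). TLR4 and MYD88 in stented static were lost without its replicate 1 (0.0733 and 0.230), and MYD88 without stented high-flow replicate 2 or either low-flow library (0.0517 to 0.0596). MYD88 there was also lost with the replicate block (0.0543), only the 2 groups (0.0816) and 1 count table (0.0757). MYD88 also rose in stented high-flow (1.24, adjusted p = 0.00931), kept in 10 of 11 leave-outs and 8 of 8 other alternatives. In high-flow it rose by 1.15 (adjusted p = 0.0259), kept in 7 of 11 leave-outs and 8 of 8 others. TLR8 also fell in stented high-flow (-1.99, adjusted p = 0.0363), kept in 5 of 11 leave-outs and 4 of 7 others.

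**Figure D5:**
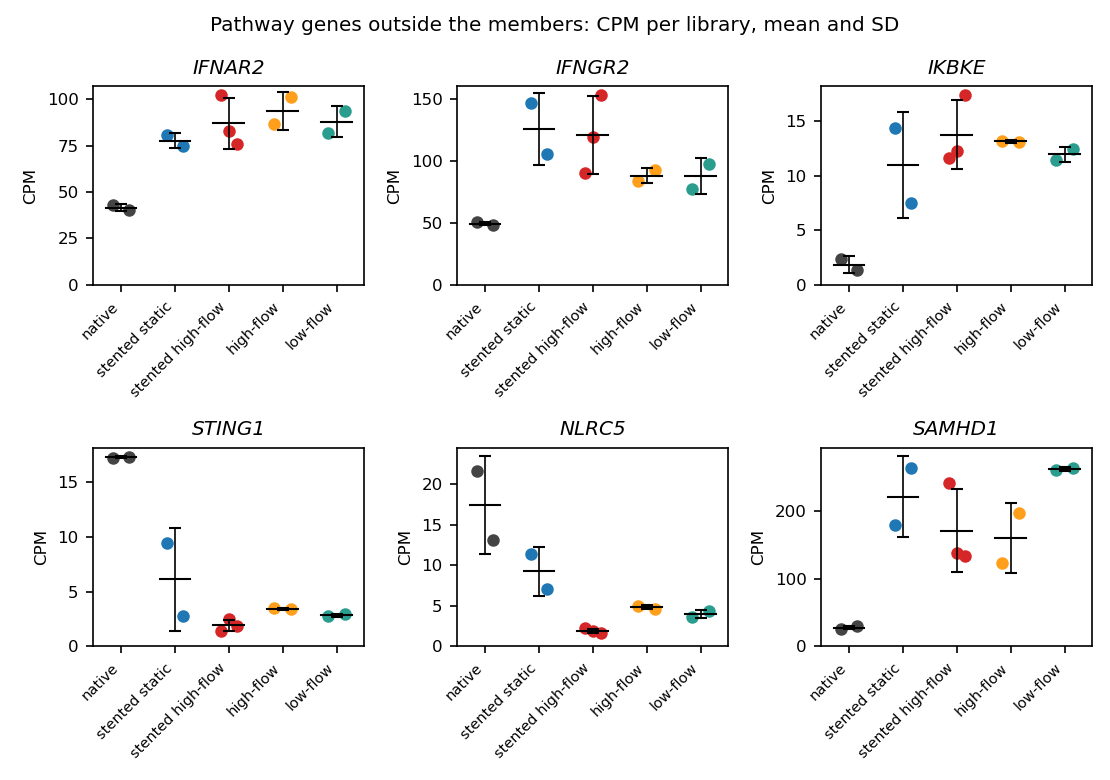
CPM per library (points), with group mean and SD (n = 2 libraries, 3 for stented high-flow), of 6 pathway genes outside the members; each vertical axis starts at 0. IFNAR2, IFNGR2, IKBKE and SAMHD1 lie above native in every cultured library, and STING1 and NLRC5 below it.

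Of 6 feedback inhibitors tested, 1 fell. It was SOCS3, an inhibitor of Janus kinase signalling, in stented high-flow (-1.24 ± 0.37, adjusted p = 0.0329) and low-flow (-2.01 ± 0.43, adjusted p = 0.0135). Among 11 genes of the interferon-gamma and immunoproteasome list, NLRC5, an activator of MHC class I genes, had 21.7 and 13.2 CPM for native, 11.4 and 7.12 for stented static, 2.22, 1.85 and 1.69 for stented high-flow, 5.04 and 4.67 for high-flow and 3.68 and 4.33 for low-flow. All cultured libraries were below native and the 3 stented high-flow ones below all others. NLRC5 fell in stented high-flow (-3.18 ± 0.37, adjusted p = 0.000295), high-flow (-1.84 ± 0.40, adjusted p = 0.0126) and low-flow (-2.12 ± 0.40, adjusted p = 0.00877). It was also lower in stented high-flow than in stented static (-2.27 ± 0.36, adjusted p = 0.0118). NLRC5 was the 1 of 61 pathway genes called there, beside 1.67% of all genes called lower. The call was lost without stented static replicate 1 and with only these groups (adjusted p = 0.107 in the latter). The immunoproteasome subunit PSMB9 fell in stented high-flow (-1.69 ± 0.52, adjusted p = 0.0371) and WARS1, a tryptophan-tRNA ligase, rose (2.21 ± 0.67, adjusted p = 0.0343). NLRC5 in stented high-flow against native was kept in every alternative and leave-out. Its high-flow and low-flow calls were lost without native replicate 1 and without either library of the group (adjusted p = 0.0679 to 0.114). SOCS3, PSMB9 and WARS1 were lost without either native library and without 1 or more libraries of the cultured group (both low-flow libraries for SOCS3 in low-flow, replicates 1 and 2 for SOCS3 and PSMB9 and replicate 3 for WARS1 in stented high-flow), with adjusted p = 0.0590 to 0.175. SOCS3 in stented high-flow was also lost without either low-flow library (0.0517). With the replicate block SOCS3, PSMB9 and WARS1 in stented high-flow had adjusted p = 0.0631, 0.0532 and 0.0893, so that none was called. With 1 count table alone, SOCS3 and WARS1 had 0.0762 and 0.0575, and PSMB9 narrowly missed the threshold. WARS1 was also lost with limma-voom (0.0599) and with only its own groups fitted (0.0561).

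The T cell attracting chemokine CXCL9 fell in all 4 groups, with 62 and 137 counts for native, 12 and 4 for stented static, 0, 0 and 1 for stented high-flow, 0 and 1 for high-flow and 1 and 1 for low-flow (adjusted p = 0.00948, 0.000305, 0.00168 and 0.00187 against native). CXCL10 fell in stented high-flow (-3.50 ± 0.94, adjusted p = 0.0211), from 79 and 125 counts in native to 5, 20 and 3. T and natural killer cell markers were called lower in the 3 flow groups too, but none in stented static, where their summed level was 63.9 and 18.6 CPM against 40.7 to 46.7 in native. Their part in these falls was not tested. Among 15 further interferon-induced genes, SAMHD1, which depletes the nucleotides that viruses need, rose in all 4 groups, from 25.9 and 29.5 CPM in native to 123 CPM or more in each cultured library, with changes of 2.53 to 3.24. SHISA5, a membrane protein of the endoplasmic reticulum, rose in all 4 as well, by 1.42 to 1.96. N4BP1, an RNA-degrading enzyme, fell in high-flow (-1.0 ± 0.28, adjusted p = 0.0335). The SAMHD1 calls, the SHISA5 call in stented high-flow, and the CXCL9 calls apart from stented static (0.103 without native replicate 2) were kept in every alternative and leave-out that gave a value. CXCL10, N4BP1 and the other SHISA5 calls were lost without either native library (adjusted p = 0.0532 to 0.203). They were also lost without stented high-flow replicate 3 (CXCL10, 0.0522), stented static replicate 1 and either low-flow library (SHISA5 in those groups, 0.0759 to 0.140), or stented high-flow replicate 2 and any high-flow or low-flow library (N4BP1, 0.0543 to 0.178). CXCL10 was also lost with the replicate block (-3.09, adjusted p = 0.0684), SHISA5 in stented static with 1 count table (0.0548) and N4BP1 with no filter (0.0505).

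The members did not all follow the same profile over the 11 libraries. Against the mean profile of the other members, HERC5, IFI44 and IFIT1 had Pearson r of 0.937, 0.934 and 0.886, whereas USP18 had 0.024, STAT2 -0.07, TAP1 -0.16, IRF9 -0.28 and IRF7 -0.43. IRF1 had 0.311. Outside the members, the genes with a symbol most like their mean profile, of 12342 ranked, included PHYKPL, KPNA5, FBXO39, DENND5B, ARHGEF28, DHX58 and ISG12(A), with r from 0.829 to 0.900. DHX58 is a relative of RIG-I and ISG12(A) an interferon-induced gene. All these correlations rest on the same 11 libraries, share their depth and scaling, and are given as descriptions.

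The authors' deposited tables of genes changed against native include IRF1 in all 4 comparisons, with log2 fold changes of -2.65 in stented static, -2.90 in stented high-flow, -3.01 in high-flow and -2.79 in low-flow. The authors' deposited tables also list GBP1, under its identifier, at -3.02 in stented high-flow, -2.18 in high-flow and -2.24 in low-flow. No other member is listed there.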

How the data were processed

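RNA was measured by paired-end sequencing of 11 libraries of coronary artery. The authors deposited gene counts in 2 tables, whose 2 native columns are identical. Sscrofa11.1, Trimmomatic, FastQC and DESeq2 are named in the submitters' processing notes; no aligner, counter, strand setting or gene annotation is named there or in the labels. Log2 fold changes in the authors' deposited lists of changed genes were only set beside the values computed here.

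Members and lists were chosen with earlier results of these data known. Symbols were matched to the tables' identifiers, with gene positions taken from RefSeq's table for Sscrofa11.1. The deposited counts went into edgeR 4.0.16 (R 4.3.3): filterByExpr (15348 genes kept), TMM scaling and 1 quasi-likelihood fit of 11 libraries and 5 groups, with 6 residual degrees of freedom, a common dispersion of 0.126, Benjamini-Hochberg adjustment and a threshold of 0.05. Log2 CPM used a prior count of 2. Intervals of 95% use the fit's standard errors and are not adjusted. The scripts were tested on simulated data. A floor of 3 counts equals 0.105 to 0.215 CPM in the libraries, and precision is limited mainly by the number of libraries.

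Members called in any comparison and 12 listed members were described in every library, others by range; for pathway lists, at most 3 called genes per list and comparison with the smallest adjusted p were named. DDX60, IFIT2, CMPK2, further members with values and the added calls of MYD88 and TLR8 were named after their values were seen. The fits were repeated with DESeq2 1.42.0 and limma-voom (limma 3.58.1), with RLE size factors, without the filter or with a minimum of 10 counts per library, with replicate number as a block, on the compared groups alone, on 1 count table alone, and with each library left out in turn.

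IFIT, MX, OAS, GBP and HERC genes have close paralogs, between which the authors' counting could split reads. Some items named by these rules are not reported here.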

Additional observations from a re-analysis of the deposited data

Results flagged for a closer look

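BST2 was called between stented high-flow and stented static arteries (-1.62 ± 0.36, adjusted p = 0.0407 in edgeR's quasi-likelihood test). Its change from native was called in neither group in the main fit. The BST2 difference was kept in 1 of 11 leave-outs and 4 of 8 other alternatives. Each of the 3 stented high-flow libraries was below both stented static libraries. NLRC5 differed in the same comparison (-2.27 ± 0.36, adjusted p = 0.0118), again with every stented high-flow library below both stented static ones. Fitting only the 2 groups gave NLRC5 an adjusted p of 0.107. Both differences are lost without stented static replicate 1.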

How the results depend on the processing

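Counts of called members were within 1.5 times of those reported, apart from these. With only the groups compared, low-flow against native gave 16 members (3 higher, 13 lower), and restricted to a single count table it gave 6. For stented high-flow against stented static, DESeq2 gave 2, while limma-voom, the replicate block, only the groups compared and only 1 count table gave 0 each. For stented high-flow against high-flow, DESeq2 gave 1 member, IFI6. The cause of these shifts was not tested. Stented high-flow against high-flow could not be fitted within 1 table, and the mean of the cultured groups was not fitted with fewer groups.

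With 1 library left out, the counts were 2 to 5 in stented static (5 without its replicate 2), 4 to 10 in stented high-flow (10 without high-flow replicate 2), 2 to 4 in high-flow (4 without either of its replicates), 1 to 4 in low-flow (1 without its replicate 1) and 2 to 8 for the mean (3 and 2 without native replicates 1 and 2, and 8 without high-flow replicate 1). They were 0 to 1 for stented high-flow against stented static (1 only without stented static replicate 2) and 0 in the other 2 comparisons. A lone remaining library was assumed to vary like the other groups. Same-numbered replicates did not deviate together (correlations -0.33 to 0.18, 6 of 20 above 0.1), so the numbers were not taken as pairs. Between groups of 2 libraries, replicates 1 and 2 give the same correlation by construction, so the 20 values are not independent. Native replicate 2 and stented high-flow replicate 1, which share a label number, were not compared in this way. With the replicate block the counts in the 8 comparisons were 3, 5, 2, 3, 6, 0, 0 and 0; stented high-flow replicate 3 has no partner of its number, so the block removes it. The block ended the GBP2 and IFI44L calls in stented high-flow and the BST2 difference. Among the named pathway calls, it ended IFNAR2, JAK1 and MYD88 in stented static and CXCL10, PSMB9, SOCS3, TLR8 and WARS1 in stented high-flow. No single-gene value turned direction among called genes. Precision is limited by 2 or 3 libraries in a group.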
